A study of Rattus norvegicus with 12 samples.

Results

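The genes Socs1, Socs2, Socs3, Cish, Pim1 and Pim3 encode 4 members of the SOCS family and 2 PIM kinases, and they are 6 of the 14217 genes that could be measured in this series of rat lung arrays. They were found by their symbol in the annotation of the array, which assigns them 8 probe sets. Socs1 and Cish have 2 probe sets each and the other genes have 1. The lungs came from wild-type male Sprague Dawley rats of 250 to 350 g, and lung RNA was hybridised to Affymetrix arrays, with 3 arrays in each of 4 groups. In the BD/SEW group brain death was followed after 15 min by SEW-2871, an agonist of the sphingosine 1-phosphate receptor S1P1, at 0.1 mg/kg into a vein. In the BD group brain death was produced by inflating a 4 Fr Fogarty balloon catheter outside the dura. In the SEW group the same dose of SEW-2871 was given without brain death, and the sham group is the control. Whether rats given SEW-2871 alone were also operated on is not stated in the labels, so operation and agonist cannot be told apart in SEW against sham. Nor can operation and brain death be told apart in BD/SEW against SEW, and the interaction and the averages over both strata share this limit. Nothing in the labels numbers the animals, and the p-values therefore measure the spread between these samples, which may be technical in part.

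SOCS proteins are feedback brakes on cytokine signalling. A cytokine bound to its receptor activates JAK kinases, which phosphorylate STAT transcription factors, and these enter the nucleus and switch on target genes, among them those of the SOCS proteins. SOCS1 and SOCS3 can inhibit JAK kinases directly, CIS (the product of Cish) and SOCS2 are best known as brakes on receptors that signal through STAT5, and the SOCS box of each protein recruits a ubiquitin ligase. The PIM kinases are also induced by STAT factors, are active once made, and phosphorylate proteins of cell survival and growth. In the lung these genes are expressed in leukocytes as well as in epithelial and endothelial cells.

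STAT dimers bind a palindrome known as the GAS motif, here searched as TTCNNNGAA, which reads the same on both strands. The promoters of Cish and Socs1 are shown because they hold this motif. RefSeq promoters (assembly GRCr8, 250 bases before to 50 after the start of the gene) were found for 5 of the 6 genes, all but Socs2. The promoter of Cish lies at chr8:116850719-116851018 on the plus strand and that of Socs1 at chr10:5389324-5389623 on the plus strand. Both are printed 5′ to 3′ with the matches in capitals.
Cish: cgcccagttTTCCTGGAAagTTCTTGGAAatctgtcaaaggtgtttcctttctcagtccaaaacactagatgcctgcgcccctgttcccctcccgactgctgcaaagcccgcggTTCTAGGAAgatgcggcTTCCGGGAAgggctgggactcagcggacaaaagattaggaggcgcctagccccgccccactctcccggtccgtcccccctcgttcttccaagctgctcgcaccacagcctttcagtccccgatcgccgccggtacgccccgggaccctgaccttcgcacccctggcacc
Socs1: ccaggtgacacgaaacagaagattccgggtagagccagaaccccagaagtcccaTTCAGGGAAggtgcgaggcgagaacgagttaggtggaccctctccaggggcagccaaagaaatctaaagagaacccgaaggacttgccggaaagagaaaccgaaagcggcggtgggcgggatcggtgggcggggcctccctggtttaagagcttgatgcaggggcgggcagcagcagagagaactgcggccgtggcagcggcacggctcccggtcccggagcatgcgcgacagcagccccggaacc
Cish held 4 matches, TTCCTGGAA, TTCTTGGAA, TTCTAGGAA and TTCCGGGAA, which began at positions -241, -230, -136 and -119 from the gene start. Socs1 held 1 match, TTCAGGGAA, at position -196, and the windows taken for Socs3, Pim1 and Pim3 held 0. These windows follow the annotated gene start, and sequence outside them was not searched. A count of 0 therefore does not show that a gene lacks the motif in its promoter. Of 33469 rat promoters of this length, 8.87% held at least 1 match, and 2 promoters (0.00598%) held 4 or more. A match of letters describes the sequence and does not show that a factor binds there.

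The lung origin of the RNA was checked with 12 markers of alveolar and airway epithelium, all of which were measured. Surfactant protein C (Sftpc) lay between 14.32 and 14.67 on the log2 scale over all 12 arrays, and the alveolar type I gene Hopx between 13.49 and 13.93. Cardiac and adipose markers were higher on every sham array and on BD replicate 2 than on all other arrays. The mean of 17 cardiac muscle markers was 6.05 to 8.02 in BD/SEW, 6.2, 11.36 and 7.12 in BD replicates 1 to 3 and 5.87 to 7.39 in SEW, against 9.32 to 10.41 in sham. The mean of 11 adipose markers was 6.34 to 7.14 in BD/SEW, 6.28, 9.06 and 6.45 in BD and 6.55 to 6.87 in SEW, against 8.46 to 9.53 in sham. In SEW against sham the median difference was -3.62 for cardiac markers (1 of 17 called lower) and -2.85 for adipose markers (5 of 11). Comparisons that use the sham group carry this difference, and treatment and tissue content cannot be told apart in them. SEW replicate 2 had a mean of 13.1 over 9 heat shock genes, against 10.84 to 11.28 on the other arrays. In bulk tissue, fewer cells of a type and less RNA per cell cannot be told apart.

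Socs1, Socs3, Cish and Pim1 shared 1 order of group means, highest in BD/SEW, then BD, then sham, and lowest in SEW. All 4 rose in BD/SEW against SEW, which is brain death, with its operation, in animals given the agonist. Brain death alone and the agonist after brain death gave no call among the 6 genes. Cish fell in SEW against sham. Of neighbours in this order, only sham and SEW differed beyond the threshold, and only in Cish. Pim3 had the same order of means, within 0.36 log2 units in all. A gene was called at a Benjamini-Hochberg adjusted p under 0.05 over all 14217 genes in a limma fit, and all differences below are on the log2 scale with their SE, from 3 arrays per group.

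**Figure D1:**
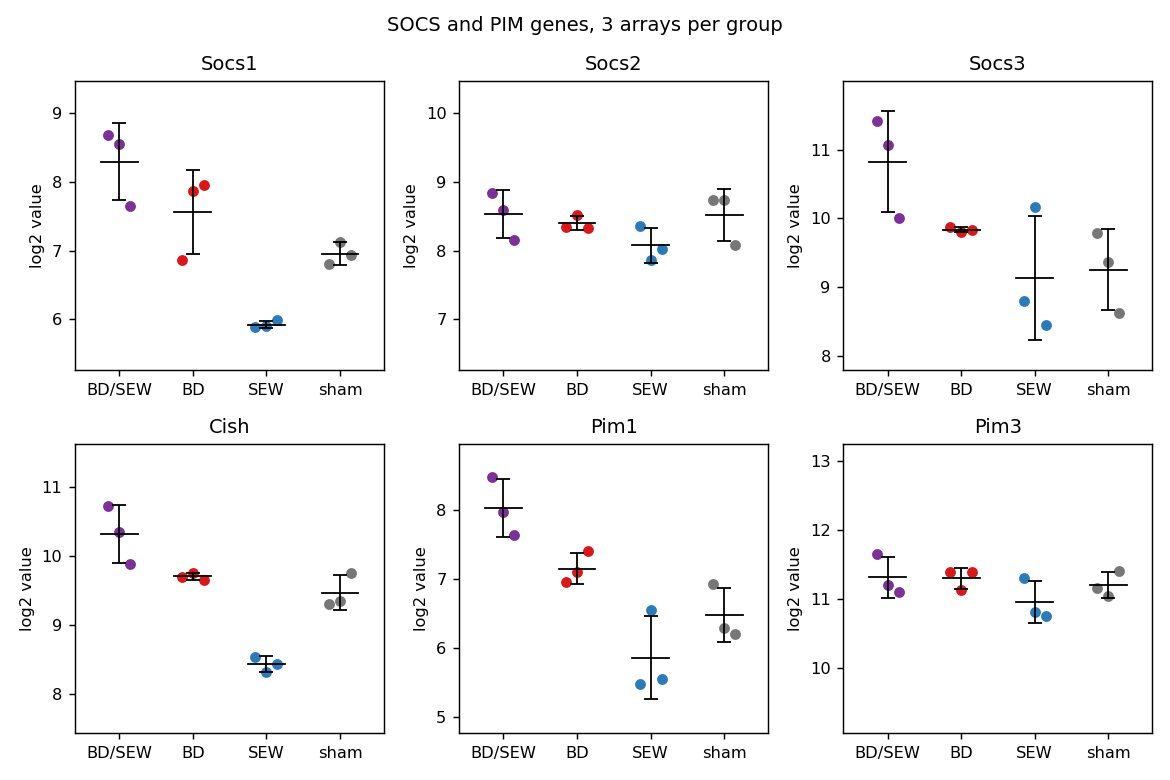
Log2 expression of the 6 genes on each of the 12 arrays, in 1 panel per gene, with the groups BD/SEW, BD, SEW and sham from left to right on the horizontal axis. Points are arrays and horizontal lines are group means, and in Socs1 the 3 SEW arrays (5.89 to 5.99) lie below every other array while in Pim3 all groups overlap between 10.75 and 11.66.

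Cish encodes CIS, a SOCS protein that STAT5 induces. Its values were 10.73, 10.35 and 9.88 in BD/SEW, 9.7, 9.76 and 9.66 in BD, 8.54, 8.32 and 8.44 in SEW, and 9.3, 9.35 and 9.76 in sham. Every BD/SEW array lay above every other array, and every SEW array lay below every other array. Cish rose by 1.89 ± 0.19 in BD/SEW against SEW (3.7-fold, adjusted p = 0.00018) and fell by 1.04 ± 0.19 in SEW against sham (adjusted p = 0.014). It was called in BD/SEW against SEW in all 6 fits that left out a compared array. The difference of 0.85 ± 0.19 in BD/SEW against sham was called (adjusted p = 0.039), but in 2 of its 6 such fits. In BD against sham the difference was 0.24 ± 0.19 (adjusted p = 0.73), with a 95% interval of -0.18 to 0.65. The call in SEW against sham was lost with the cardiac markers as a covariate (-1.2, adjusted p = 0.12) and with the adipose markers (-1.18, adjusted p = 0.17).

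Socs1 encodes SOCS1, a JAK inhibitor best known as the brake on interferon signalling. It was 8.68, 8.55 and 7.65 in BD/SEW, 6.86, 7.87 and 7.96 in BD, 5.89, 5.9 and 5.99 in SEW, and 6.81, 7.13 and 6.93 in sham. The SEW arrays had an SD of 0.06 (n = 3) and lay below all others. BD/SEW exceeded sham and SEW without overlap, and it overlapped with BD. Socs1 rose by 2.37 ± 0.3 in BD/SEW against SEW (5.16-fold, adjusted p = 0.00074) and was called in all 6 fits without a compared array. It rose by 1.34 ± 0.3 in BD/SEW against sham (adjusted p = 0.04), which 1 of 6 such fits called. In SEW against sham its difference of -1.03 ± 0.3 missed the threshold (adjusted p = 0.065). SEW and sham arrays did not overlap, as in 27.1% of all genes. A call in SEW against sham was gained without BD replicate 1 (adjusted p = 0.034) and without BD/SEW replicate 3 (adjusted p = 0.045). The mean in SEW, 5.93, stands at percentile 30.2 of all probe sets, near the lower quartile of the arrays (5.56 to 5.66). No detection call comes with these values, which makes the size of the Socs1 differences against SEW uncertain.

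Socs3 encodes SOCS3, a brake on gp130 cytokine receptors and a classic STAT3 target. It was 11.41, 11.06 and 10 in BD/SEW, 9.87, 9.8 and 9.83 in BD, 8.8, 10.16 and 8.45 in SEW, and 9.79, 9.36 and 8.62 in sham. The BD arrays were nearly alike, while SEW replicate 2 stood above BD and above BD/SEW replicate 3. Socs3 rose by 1.69 ± 0.45 in BD/SEW against SEW (3.22-fold, adjusted p = 0.037). Leaving out a compared array kept this call in 2 of 6 fits. It was lost without SEW replicate 1 (1.52, adjusted p = 0.096), without SEW replicate 3 (1.34, adjusted p = 0.12), without BD/SEW replicate 1 (1.39, adjusted p = 0.14) and without BD/SEW replicate 2 (1.57, adjusted p = 0.12). Leaving out BD replicate 1, BD replicate 3 or sham replicate 2, which enter only through the shared spread, gave an adjusted p of 0.053 each, and a fit on the compared arrays only gave 0.093. In BD/SEW against sham the difference of 1.57 ± 0.45 was not called (adjusted p = 0.094). It was called without SEW replicate 2 (adjusted p = 0.034), with array weights (1.43, adjusted p = 0.0092) and with the replicate number as a block (adjusted p = 0.043). A further fit left out 3 arrays that stand apart, BD replicate 2, SEW replicate 2 and sham replicate 3. In this order they had the highest cardiac mean, the highest heat shock mean and the lowest array weight (0.25). Without them the difference of BD/SEW from SEW was 2.2 (adjusted p = 0.005). This fit drops the highest Socs3 value of SEW (10.16, replicate 2).

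Socs2 encodes SOCS2, the brake on growth hormone signalling through STAT5. It was 8.84, 8.59 and 8.16 in BD/SEW, 8.35, 8.52 and 8.33 in BD, 8.36, 7.86 and 8.02 in SEW, and 8.74, 8.74 and 8.08 in sham. The groups overlapped in every pair, and its means (8.53, 8.4, 8.08 and 8.52) did not follow the order of the other genes. No comparison called it. BD/SEW against SEW gave 0.45 ± 0.21 (adjusted p = 0.23), with a 95% interval of -0.02 to 0.92.

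Pim1 encodes a serine/threonine kinase induced by STAT3 and STAT5. It was 8.48, 7.98 and 7.65 in BD/SEW, 6.96, 7.1 and 7.41 in BD, 5.48, 6.56 and 5.55 in SEW, and 6.93, 6.3 and 6.21 in sham. The BD/SEW arrays lay above all others, and only SEW replicate 2 of its group reached the sham range. Pim1 rose by 2.17 ± 0.3 in BD/SEW against SEW (4.51-fold, adjusted p = 0.0012), called in all 6 fits without a compared array, and by 1.56 ± 0.3 in BD/SEW against sham (2.94-fold, adjusted p = 0.024), called in 2 of 6. Its SEW mean of 5.86 stands at percentile 29.2 of all probe sets, so the limit given for Socs1 holds here too. Pim3, a kinase close to Pim1 in sequence and substrates, was high on every array. It was 11.66, 11.2 and 11.1 in BD/SEW, 11.4, 11.13 and 11.39 in BD, 11.31, 10.82 and 10.75 in SEW, and 11.16, 11.04 and 11.41 in sham. No comparison called Pim3, and the largest difference was 0.36 ± 0.18 in BD/SEW against SEW (adjusted p = 0.26, 95% interval -0.03 to 0.75).

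Read by comparison, BD/SEW against SEW, which is brain death, with its operation, in animals given the agonist, had 4 of the 6 genes called higher and 0 lower. Over all 14217 genes 4.75% were called higher and 5.04% lower in it. The median difference of the 6 genes was 1.79, against -0.01 over all genes. SEW against sham, the agonist without brain death, called 0 of 6 higher and 1 lower (Cish), against 3.4% higher and 2.43% lower of all genes, and the median of the 6 was -0.53 (all genes 0.02). BD/SEW against sham called 3 higher and 0 lower (Socs1, Cish and Pim1), against 1.7% higher and 1.17% lower of all genes. The count was 0 without BD/SEW replicate 1, BD/SEW replicate 2 or sham replicate 2, it was 1 without SEW replicate 3, sham replicate 1 or sham replicate 3, and it was 4 without SEW replicate 2. It was also 0 with the cardiac, the adipose or the neutrophil marker mean as a covariate. These 3 comparisons share arrays, so their values do not stand as independent evidence of each other.

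BD against sham, brain death without the agonist, called 0 of the 6 genes in either direction, and over all genes only 0.211% were called higher and 0.38% lower. By limma 1 of the 6 genes had an unadjusted p under 0.05, Pim1, with a difference of 0.68 ± 0.3 (unadjusted p = 0.047, adjusted p = 0.45), where 11% of all genes had such a p. Socs1 differed by 0.61 ± 0.3 (adjusted p = 0.5). BD and sham arrays did not overlap in Pim1 and in Socs3 (0.58 ± 0.45, adjusted p = 0.72), as in 15.7% of all genes. BD/SEW against BD, the agonist given after brain death, called 0 of 6 as well, with 0.0141% of all genes called higher and 0% lower. The differences of Cish (0.61 ± 0.19, unadjusted p = 0.0075), Pim1 (0.88 ± 0.3, unadjusted p = 0.014), Socs1 (0.73 ± 0.3, unadjusted p = 0.032) and Socs3 (0.99 ± 0.45, unadjusted p = 0.05) were positive, and their adjusted p was 0.81 to 0.91. Over all genes 5.44% had an unadjusted p under 0.05 in this limma comparison. The median of the 6 was 0.67, against 0.01 over all genes.

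The interaction, the brain death difference with the agonist minus that without it, called 1 of 6 higher and 0 lower, against 0.851% higher and 0.0985% lower of all genes. That gene was Cish, at 1.65 ± 0.27 (adjusted p = 0.018). Its brain death difference was 1.89 with the agonist and 0.24 without it. The call was lost without BD replicate 1 (adjusted p = 0.058) and without BD/SEW replicate 2 (adjusted p = 0.061), and with the adipose covariate the value was 1.76 (adjusted p = 0.051). Socs1 (1.76 ± 0.42, adjusted p = 0.087) and Pim1 (1.5 ± 0.43, adjusted p = 0.16) missed the threshold in the full fit. Socs1 was called without BD/SEW replicate 3 (adjusted p = 0.033) and Pim1 without SEW replicate 2 (adjusted p = 0.027). Averaged over animals with and without the agonist, brain death had 4 of 6 genes called higher and 0 lower, against 4.4% higher and 5.11% lower of all genes. These were Socs1 (1.49 ± 0.21, adjusted p = 0.0015), Pim1 (1.43 ± 0.22, adjusted p = 0.002), Cish (1.06 ± 0.13, adjusted p = 0.00078) and Socs3 (1.13 ± 0.32, adjusted p = 0.047). Socs3 was called in 3 of the 12 fits that left out an array, and the other 3 genes in all 12. Socs3 also lost this call over every probe set (adjusted p = 0.056), with the mean of probe sets (adjusted p = 0.052) and with the cardiac (1.08, adjusted p = 0.083) or adipose covariate (1.16, adjusted p = 0.12). With the neutrophil covariate Socs3 was 0.07 (adjusted p = 0.92) and Pim1 was 0.66 (adjusted p = 0.026). Averaged in the same way, the agonist called 0 of 6 higher and 0 lower, against 0.0703% higher and 0.0703% lower of all genes, with unadjusted p of 0.14 or more for each gene.

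**Figure D2:**
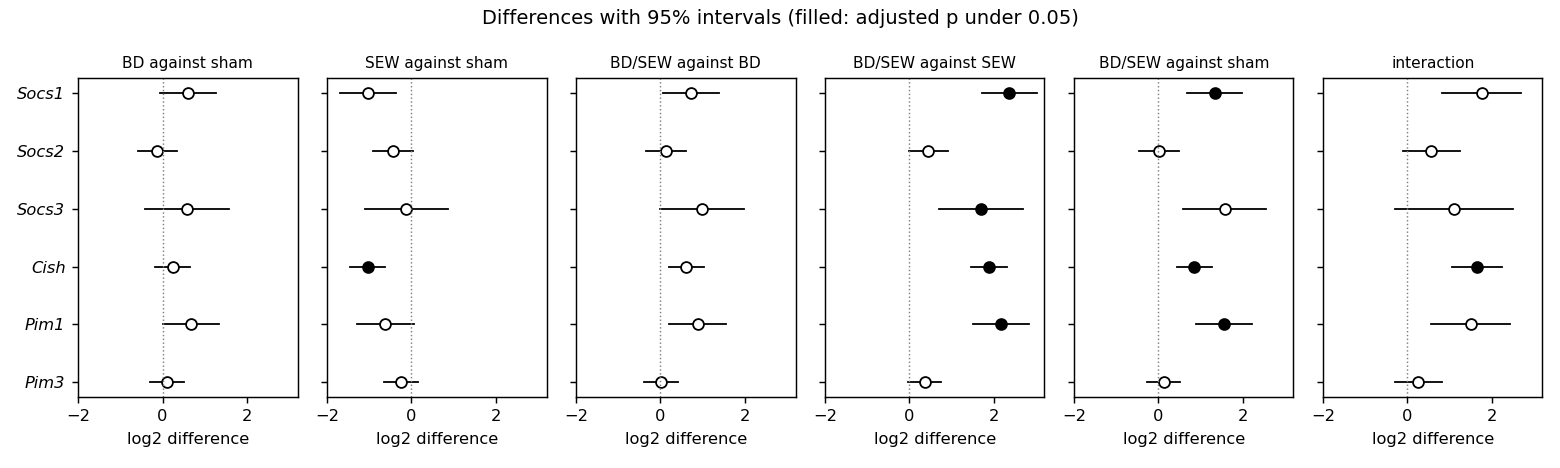
Log2 differences of the 6 genes in each comparison with their 95% intervals, where filled points passed an adjusted p under 0.05 and open points did not. Socs1, Socs3, Cish and Pim1 are filled in BD/SEW against SEW, at 2.37, 1.69, 1.89 and 2.17.

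The second probe sets of Socs1 and Cish gave other values. In a fit over all 31042 probe sets, the weaker Socs1 probe set (1375568_at) was 6.73, 6.69 and 6.74 in BD/SEW and 6.49, 6.44 and 6.55 in SEW, a difference of 0.23 ± 0.15 (adjusted p = 0.44). Its group means spanned 6.49 to 6.86, while the brighter Socs1 probe set (1371252_at) spanned 5.93 to 8.29. The second Cish probe set (1388233_at) was 9.41, 8.96 and 7.92 in BD/SEW, 8.21, 8.32 and 7.88 in BD, 7.58, 7.39 and 7.08 in SEW, and 7.79, 8.15 and 6.19 in sham. Its difference of 1.41 ± 0.46 in BD/SEW against SEW had the sign of the first probe set without passing (adjusted p = 0.097). In SEW against sham it showed -0.03 ± 0.46 (adjusted p = 0.98), with sham replicate 3 at 6.19, so the fall of Cish in that comparison and its interaction rest on 1 probe set. With the mean of both probe sets, Cish was -0.53 in SEW against sham (adjusted p = 0.23) and 1.15 in the interaction (adjusted p = 0.23), and Socs1 was 0.68 in BD/SEW against sham (adjusted p = 0.087).

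**Figure D3:**
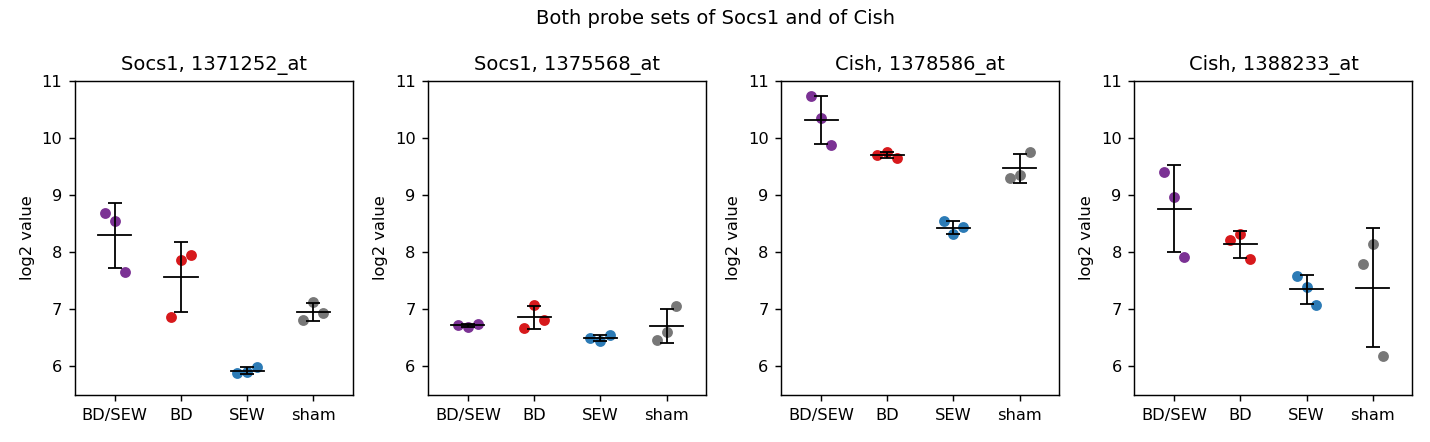
Log2 values of both probe sets of Socs1 and of Cish on the 12 arrays, by group from BD/SEW on the left to sham on the right. The 2 Socs1 probe sets differ in spread, with group means of 5.93 to 8.29 in the brighter and 6.49 to 6.86 in the other.

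Neutrophil and platelet markers moved with the genes in BD/SEW against SEW. The mean of 9 measured neutrophil markers, of 15 listed (Lcn2 and Csf3r also stand on the STAT3 and receptor lists below), was 11.43, 11.02 and 10.95 in BD/SEW, 10.17, 10.2 and 10.65 in BD, 8.7, 10.3 and 8.92 in SEW, and 10.56, 10.2 and 9.59 in sham. SEW replicate 2, the SEW array with the highest Socs3 and Pim1, was also the SEW array with the highest neutrophil mean. It was the highest SEW array in the macrophage (9.86), T and NK cell (8.05) and B cell (7.11) means and in heat shock genes too. This trait is therefore not particular to neutrophils. In BD/SEW against SEW 4 of the 9 neutrophil markers rose and 0 fell, with a median difference of 1.6. Camp, a granule peptide of neutrophils, averaged 11.12 in BD/SEW and 7.39 in SEW. With the neutrophil mean as a covariate, a setting chosen after seeing the data, Socs1 differed by 2.1 (adjusted p = 0.037) and Cish by 2.08 (adjusted p = 0.0081) in BD/SEW against SEW, both still called. Pim1 was 0.81 (adjusted p = 0.067), which ended its call, and Socs3 was -0.21 (adjusted p = 0.82), which turned its direction. The neutrophil means of SEW (8.7 to 10.3) and BD/SEW (10.95 to 11.43) did not overlap, so this fit extrapolates between the groups. Its slope leans on SEW replicate 2, at 10.3 against 8.7 and 8.92 in its group. These values therefore do not measure the part of neutrophils, which was not tested. Platelet markers rose as well in BD/SEW against SEW, all 6 that were measured. Their mean was 8.27 to 9.22 in BD/SEW, 7.88 to 8.05 in BD, 7 to 7.62 in SEW and 7.35 to 7.97 in sham. Macrophage markers had 0 of 9 called and B cell markers 0 of 5, while T and NK cell markers had 1 of 11 called higher. The part of platelets in the results was not tested.

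**Figure D4:**
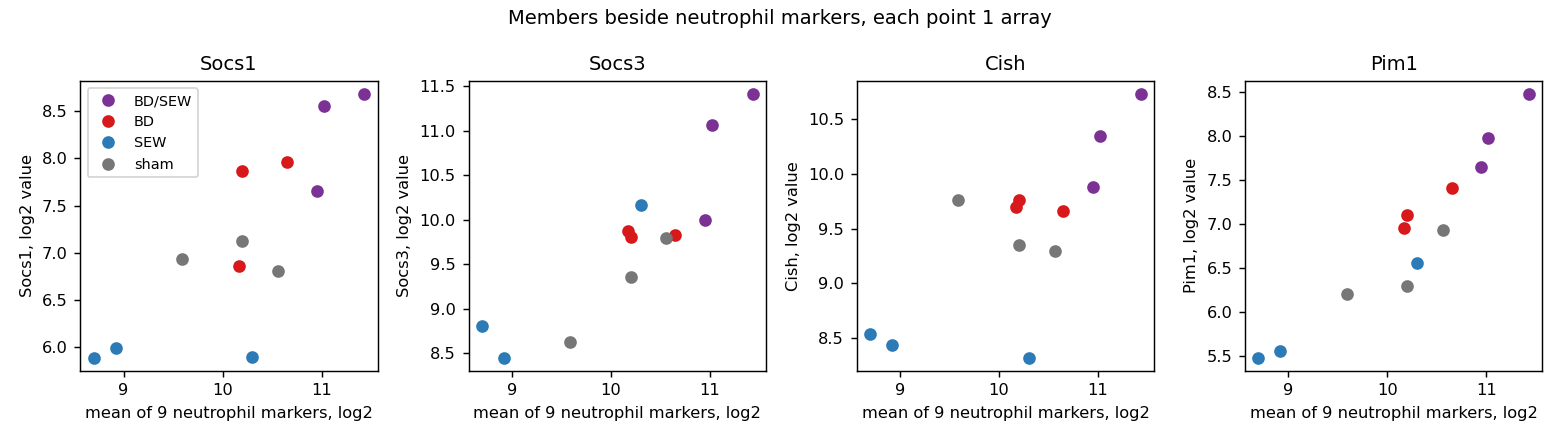
Log2 values of Socs1, Socs3, Cish and Pim1 on the vertical axes against the mean log2 value of 9 neutrophil markers on the horizontal axis, 1 point per array and 1 panel per gene, coloured by group. The BD/SEW arrays sit at neutrophil means of 10.95 to 11.43 and the SEW arrays at 8.7, 10.3 and 8.92.

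The genes that act upstream of the SOCS proteins were counted from lists of the pathway. Beside the list counts of BD/SEW against SEW here and below, 4.75% of all genes were called higher and 5.04% lower. Of 23 measured cytokines and hormones that signal through JAKs, 5 rose and 0 fell in BD/SEW against SEW. Il6, the ligand of the gp130 receptor that drives STAT3, was 10.04, 9.57 and 8.57 in BD/SEW and 6.66, 7.91 and 7.41 in BD. It was 4.57, 7.28 and 4.57 in SEW and 8.23, 7.99 and 10.04 in sham. SEW replicate 2 was again the highest of its group, and the Il6 mean of 5.47 in SEW lies below the lower quartile of the arrays. Unlike Socs3, Il6 had a lower mean in BD (7.33) than in sham (8.75), with a difference of -1.43 ± 0.74 (adjusted p = 0.53). Il6 was called at -3.28 ± 0.74 in SEW against sham (adjusted p = 0.03) and at 5.35 ± 1.05 in the interaction (adjusted p = 0.039). In BD/SEW against SEW it rose by 3.92 ± 0.74 (adjusted p = 0.0064). Csf3, the neutrophil growth factor G-CSF, rose by 1.54 ± 0.32 in this comparison but fell by 1.74 ± 0.32 in BD against sham (adjusted p = 0.037) and fell by 2.49 ± 0.32 in SEW against sham (adjusted p = 0.0035). Il10, an anti-inflammatory cytokine, rose by 0.97 ± 0.15, on low means of 5.89 in BD/SEW and 4.93 in SEW. Of 22 measured receptors, 5 rose and 1 fell. Csf2ra, a subunit of the GM-CSF receptor, rose by 1.31 ± 0.11 (adjusted p = 5.7e-05) and Il10ra, of the IL-10 receptor, by 1.25 ± 0.12 (adjusted p = 0.00018). Il6r, the IL-6 binding chain, fell by 0.88 ± 0.11 (adjusted p = 0.00076), and in BD against sham it also fell by 0.88 ± 0.11 (adjusted p = 0.0043).

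Of 10 measured JAK and STAT genes, 4 rose in BD/SEW against SEW and 0 fell, with a list median of 0.16 (all genes -0.01). Stat2, which carries interferon signals, rose by 1.34 ± 0.2 (adjusted p = 0.0016), Stat3 by 0.6 ± 0.11 (adjusted p = 0.0053), and Stat5a, a STAT5 gene, by 0.59 ± 0.13 (adjusted p = 0.017). Stat5b, the other STAT5 gene, was not called, at -0.03 ± 0.27 (adjusted p = 0.97). In SEW against sham Stat3 fell by 0.79 ± 0.11 (adjusted p = 0.0044) and Stat2 fell by 0.9 ± 0.2 (adjusted p = 0.028). Stat3 in the interaction was 0.77 ± 0.16 (adjusted p = 0.046). Of 4 other SOCS and PIM genes measured, 0 changed in BD/SEW against SEW. Averaged over both strata, Socs5 fell by 0.47 ± 0.11 with brain death (adjusted p = 0.017) and Pim2 rose by 0.45 ± 0.12 (adjusted p = 0.044). Of 6 measured genes listed as ubiquitin ligase partners of the SOCS box, 1 rose and 1 fell in BD/SEW against SEW. The cullin gene Cul2 rose by 0.47 ± 0.13 (adjusted p = 0.045) and the RING protein gene Rnf7 fell by 0.5 ± 0.1 (adjusted p = 0.0078). The other measured cullin gene, Cul5, was not called (-0.16 ± 0.15, adjusted p = 0.57).

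Among 11 other inhibitors of the pathway, 2 rose and 1 fell in BD/SEW against SEW. The phosphatase genes Ptpn1 (1.72 ± 0.24, adjusted p = 0.0012) and Ptpn2 (0.86 ± 0.14, adjusted p = 0.0032) rose. Sh2b3, an adaptor that restrains cytokine receptors, fell by 0.96 ± 0.2 (adjusted p = 0.012). Ptpn2 had a call in the interaction, at 1.08 ± 0.2 (adjusted p = 0.037), and fell by 1.06 ± 0.14 in SEW against sham (adjusted p = 0.0041).

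Of 14 genes known to be induced through STAT3, 3 rose and 0 fell in BD/SEW against SEW. Bcl3, a coactivator of NF-kappa-B, rose by 2.59 ± 0.22 (adjusted p = 7.4e-05), Junb, an AP-1 subunit, by 1.55 ± 0.3 (adjusted p = 0.008), and the IL-1 receptor antagonist gene Il1rn by 1.93 ± 0.49 (adjusted p = 0.029). Of 8 genes listed as STAT5 targets, not all of them known to be induced by it, 0 changed, and the cyclin gene Ccnd1 was 0.41 ± 0.2 (adjusted p = 0.23). The 14 measured genes whose proteins PIM kinases phosphorylate had 2 rises and 2 falls. Mycn, a MYC transcription factor, rose by 3.79 ± 0.32 (adjusted p = 5.8e-05), and Rela, an NF-kappa-B subunit, by 0.67 ± 0.11 (adjusted p = 0.0023). Bad, a proapoptotic BCL2 protein that PIM1 inactivates, fell by 0.59 ± 0.09 (adjusted p = 0.0021). The lists were chosen with earlier results known, so their counts describe these arrays only.

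The same lists had fewer calls in the other pairwise comparisons. In BD against sham Mycn was the 1 called gene of the 14 PIM substrate genes, with a rise of 2.94 ± 0.32 (adjusted p = 0.0037). It was 10.45, 9.34 and 9.52 in BD and 6.55, 6.79 and 7.16 in sham, with no overlap. Of the 14 STAT3 targets 1 fell, Cebpb, a transcription factor of the acute phase, which fell by 1.24 ± 0.15 (adjusted p = 0.0039), while Socs3 was not called. In SEW against sham 0 rose and 2 fell of the STAT3 targets, where Bcl3 fell by 1.74 ± 0.22 (adjusted p = 0.0035). In BD/SEW against sham 0 of the 14 STAT3 targets rose and 1 fell, Cebpb again, which fell by 0.8 ± 0.15 (adjusted p = 0.019).

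**Figure D5:**
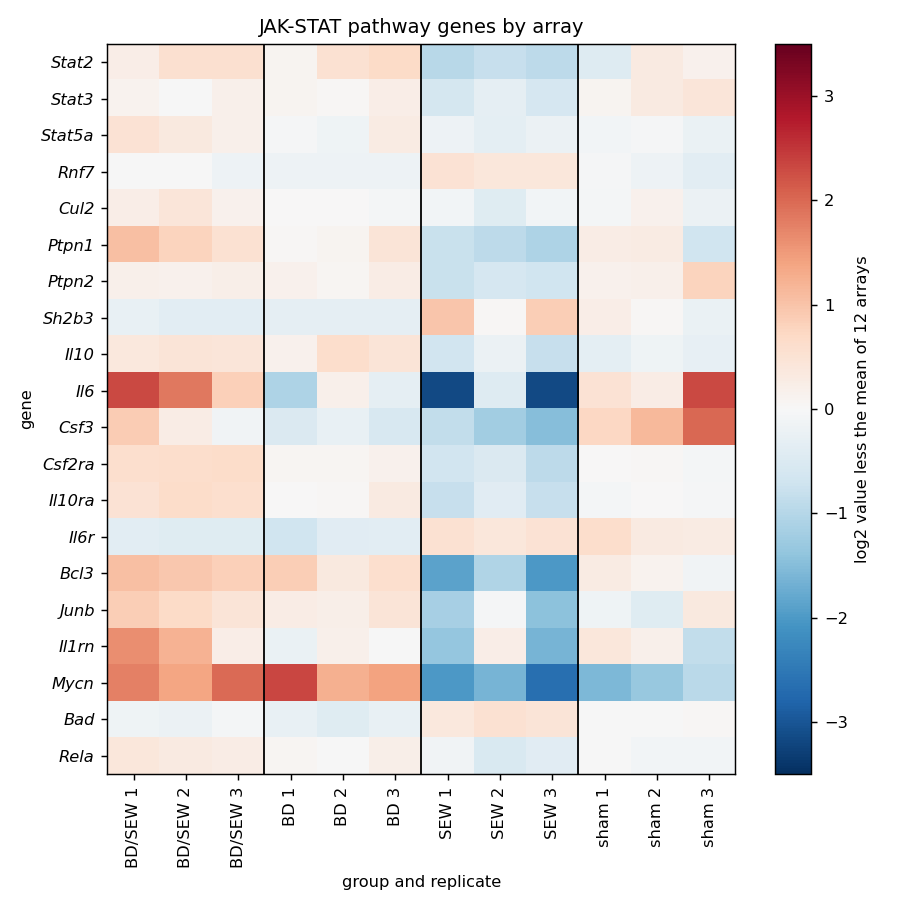
Heat map of 20 pathway genes, up to 3 called genes per list with the smallest p in BD/SEW against SEW, with genes in rows and the 12 arrays in columns from BD/SEW on the left to sham on the right. Colour gives the log2 value less the gene's mean over the 12 arrays, red for higher and blue for lower, and Il6 shows group means of 9.39 in BD/SEW and 5.47 in SEW.

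Genes with a like pattern over the 12 arrays were sought for the 4 genes called in a pairwise comparison, by the smallest mean absolute difference of centred values among 2986 genes. For Cish these were Ralgds (0.167), Tifa (0.182) and Sh3rf1 (0.185). For Socs1 they were Rhoh (0.191), Sh3bp2 (0.281) and Mad2l1bp (0.288), and for Socs3 Il1rn (0.227), Map3k8 (0.251) and Fgr (0.26). Pim1 was closest to Metrnl (0.187), Padi4 (0.216) and Pglyrp1 (0.217). Padi4 and Pglyrp1 are known as neutrophil genes, and Pglyrp1 was 11.45, 11.11 and 11.06 in BD/SEW, against 8.7, 10.38 and 8.83 in SEW. The members themselves ranged over 2.41 (Cish) to 3 (Pim1) log2 units.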

How the data were processed

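Rat lung RNA was measured on 12 Affymetrix arrays, 3 per group. The authors deposited 1 log2 value per probe set and array, given to 2 decimals. Per the submitters' processing notes the tools were RMA, MAS5 and affy, with neither version nor role stated. The array medians were 7.34 to 7.41, and at equal rank 2 arrays were never more than 0.22 apart. The number of arrays limits the precision. Of 31042 probe sets, 20826 had 1 gene symbol, 436 several and 9780 none, and 20758 of the first matched RefSeq by gene ID. For the 4525 genes with several probe sets the one with the highest mean was used.

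Group means were fitted over all 12 arrays with limma 3.58.1 in R 4.3.3 (moderated variances with a mean trend, two-sided), and p-values were adjusted by Benjamini-Hochberg over 14217 genes. The test was checked on simulated data. The 8 comparisons were 5 pairs of groups, the interaction, and each treatment averaged over both strata of the other.

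The members, gene lists, markers and rules were chosen with earlier results of these data known. The rule for named genes takes all 6 members, up to 3 called genes per list and comparison with the smallest p, up to 2 where a list has none, and the 3 genes most like each called member (mean above the 25th percentile, range of at least 1). Of the list genes it allows, the text gives those called in BD/SEW against SEW and only some of the others. Sftpc, Hopx and Camp stand for their marker lists and were chosen after their values were seen. Alternatives changed the arrays, weights, variance model, probe set rule, filter, threshold, scaling and covariates. Raw array files were not used here. A further gene list is not reported here.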

Additional observations from a re-analysis of the deposited data

Results flagged for a closer look

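The brain death difference of Cish differed between animals with and without the agonist, by 1.65 ± 0.27 on the log2 scale (limma interaction term, adjusted p = 0.018, n = 3 per group). It was 1.89 in BD/SEW against SEW and 0.24 in BD against sham. The 3 SEW arrays (8.54, 8.32 and 8.44) were the lowest of the 12. The second Cish probe set gave 0.65 ± 0.66 (adjusted p = 0.75). The part of the sham operation in this difference was not tested.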

How the results depend on the processing

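Of 1230 values of single genes under the alternatives, 1116 kept their sign and side of the threshold, 72 lost a call and 13 gained one. Most of the 1230 belong to results not called in the main fit, which had no call to lose. The 72 lost calls therefore fall on the smaller part that was called. The sign changed in 28 values that were not called and in 1 that was, Socs3 in BD/SEW against SEW, at -0.21 with the neutrophil covariate. Counts of called members were as follows. In SEW against sham (1) the count was 2 on the compared arrays only, 3 with array weights and 0 with the mean of probe sets, with the cardiac or the adipose covariate, at an adjusted p under 0.01 or without the 3 arrays that stand apart. In BD/SEW against sham (3) it was 4 with array weights, 2 on the compared arrays only and without the 3 arrays, 1 over every probe set and with the mean of probe sets, and 0 with the cardiac, adipose or neutrophil covariate or at an adjusted p under 0.01. In the interaction (1) it was 3 with array weights, 2 without the 3 arrays, and 0 with the mean of probe sets, with the adipose covariate and at the threshold of 0.01. The 4 calls of BD/SEW against SEW were 3 on the compared arrays only and at the threshold of 0.01, and 2 with the neutrophil covariate. Averaged brain death (4) was 3 over every probe set, with the mean of probe sets, at the threshold of 0.01 and with each covariate. The adipose and neutrophil covariates were chosen after seeing the data. The stricter threshold lowers counts by construction, and otherwise the cause was not tested. Leaving out each array gave 0 to 0 in BD against sham, 1 to 2 in SEW against sham, 0 to 0 in BD/SEW against BD, 3 to 4 in BD/SEW against SEW, 0 to 4 in BD/SEW against sham, 0 to 2 in the interaction, 3 to 4 for averaged brain death and 0 to 0 for the averaged agonist. With the replicate block the counts stayed at 0, 1, 0, 4, 3, 1, 4 and 0 in that order, with Cish at an adjusted p of 0.052 and Socs3 at 0.043 in BD/SEW against sham. The numbers share no stated animal, and same-numbered samples correlated at -0.186 to 0.375 over 18 pairs, against -0.429 to 0.288 over 36 other pairs. Signal over background was not measured, which limits the low values of Socs1 and Pim1 in SEW.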
